A study of Mus musculus with 6 samples.

Results

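The genes described here are 10 transcription factor genes of the myeloid lineage, out of 21307 rows in the deposited table of mouse bone marrow cells: Spi1, Cebpa, Cebpb, Cebpd, Cebpe, Gfi1, Irf8, Nr4a1, Batf3 and Id2. They were chosen by name. Of the 10 names, 9 stand in the table as written, and Spi1 stands there under its older name, Sfpi1, which RefSeq lists as a synonym. The cells were labelled B cells and came from the bone marrow of pretumoral mice 6 to 8 weeks old on a C57BL/6 x 129S1/SvlmJ background. All of them carried the E-mu-myc transgene, which drives MYC from an immunoglobulin enhancer, with loxP-flanked Prmt5 alleles and CreER, a Cre recombinase that 4-hydroxytamoxifen (4-OHT) activates. Both conditions were grown with interleukin 7 (5 ng/ul). One condition (3 libraries) received 50 nM 4-OHT for 24 h to delete Prmt5, the other (3 libraries) received ethanol, and both were then washed and cultured for 5 more days. The labels name neither the promoter of CreER nor whether the 3 libraries of a condition came from separate mice or cultures. The ethanol libraries are titled WT and the 4-OHT libraries PT, although the characteristics give 1 genotype for all 6. The conditions are named here by treatment, as in the characteristics and in the table itself.

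PU.1, the product of Spi1, is an ETS-family factor that opens enhancers in myeloid and B cells and at high level favours the myeloid fate. C/EBP factors are basic leucine zipper proteins that work beside PU.1: C/EBP alpha starts granulocyte and monocyte development, C/EBP epsilon drives the late granule genes, and C/EBP beta and delta act in emergency and inflammatory responses. IRF8 and NR4A1 direct monocytes, GFI1 restrains monocyte genes in neutrophil precursors, BATF3 is needed for cross-presenting dendritic cells, and ID2 binds E proteins such as E2A and keeps them from DNA. In B cells E2A, EBF1 and PAX5 hold the lineage, and forced expression of C/EBP alpha or beta can turn B cells into macrophages.

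The promoters of the most abundant members after Spi1, for which no promoter was available, are shown. Irf8 has a pair, of which the upstream promoter is given. They are shown because these genes differ in how they stood in 4-OHT: Cebpa, Cebpb and Id2 were higher, and Irf8 was nearly equal. The sequences come from RefSeq (GRCm38.p6) and run 5′ to 3′ on the gene's strand, from 250 bases before to 50 bases after the start of the gene. Capitals mark matches, on either strand, to the GC box that SP1 binds, to the letters of the TATA box and to a CREB-like site.
Cebpa, chr7:35119043-35119342, plus strand: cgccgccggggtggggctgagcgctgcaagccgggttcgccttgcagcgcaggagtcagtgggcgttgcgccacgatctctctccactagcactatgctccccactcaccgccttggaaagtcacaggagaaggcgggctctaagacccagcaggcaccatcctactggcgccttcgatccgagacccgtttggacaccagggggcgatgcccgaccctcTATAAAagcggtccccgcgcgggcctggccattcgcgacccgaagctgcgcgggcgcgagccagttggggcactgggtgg
Cebpb, chr2:167688665-167688964, plus strand: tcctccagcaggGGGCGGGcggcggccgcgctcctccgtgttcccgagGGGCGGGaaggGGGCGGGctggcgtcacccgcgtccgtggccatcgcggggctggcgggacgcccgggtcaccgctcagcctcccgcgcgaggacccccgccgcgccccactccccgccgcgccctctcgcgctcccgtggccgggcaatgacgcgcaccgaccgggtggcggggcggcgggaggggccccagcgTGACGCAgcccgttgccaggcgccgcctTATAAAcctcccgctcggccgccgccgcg
Id2, chr12:25096043-25096342, minus strand: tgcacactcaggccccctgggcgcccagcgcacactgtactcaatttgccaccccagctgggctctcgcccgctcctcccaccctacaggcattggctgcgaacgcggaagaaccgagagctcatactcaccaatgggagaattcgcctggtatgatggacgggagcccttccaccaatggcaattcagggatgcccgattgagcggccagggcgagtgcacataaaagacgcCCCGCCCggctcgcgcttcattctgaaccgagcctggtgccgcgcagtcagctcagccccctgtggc
Irf8, chr8:120736108-120736407, plus strand: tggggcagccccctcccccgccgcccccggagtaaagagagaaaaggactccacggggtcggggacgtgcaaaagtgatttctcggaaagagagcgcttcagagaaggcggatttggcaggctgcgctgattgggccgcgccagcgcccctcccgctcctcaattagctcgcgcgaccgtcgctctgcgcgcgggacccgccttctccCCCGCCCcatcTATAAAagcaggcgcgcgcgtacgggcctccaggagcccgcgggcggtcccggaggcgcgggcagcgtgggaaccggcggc

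The promoter table holds 9 promoters for 7 of the 10 genes, with a pair each for Gfi1 and Irf8; Spi1, Cebpd and Cebpe are not among them. The TATA box, searched as TATAAA, was found in the promoters of Cebpa, Cebpb and Irf8 and in 13.6% of all 32851 promoters of the same length. In Cebpa and Irf8 it begins 30 and 31 bases before the start. In Cebpb these letters begin 21 bases after the start, where a TATA box for that start would not lie. The GC box, searched as GGGCGGG, was found in Cebpb (3 matches), Id2 (1), Irf8 (1), Nr4a1 (2) and Batf3 (4), and in 25.6% of all promoters. The CREB-like site, searched as TGACGCA, was found once in Cebpb and 4 times in Nr4a1, an immediate early gene, and in 2.12% of all promoters. The TATA box and the CREB-like site were added to the search after the sequences had been seen. The PU.1 motif GAGGAAGT, the C/EBP motif TTGCGCAA, the CREB motif TGACGTCA, the IRF tandem GAAANNGAA and the ETS-IRF composite GGAANNGAA, which can overlap the tandem, matched none of the 9 promoters. They were found in 3.20%, 0.183%, 1.79%, 8.56% and 8.24% of all promoters. The looser C/EBP motif TTGCNNAA, which includes TTGCGCAA, matched 1 of the Gfi1 promoters and 10.8% of all. The E box CACGTG matched Batf3 and 7.15% of all. These are matches of letters only, and both genes that were higher and genes that were near equal hold them.

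Every value is a level in FPKM (mapped fragments scaled to transcript length and library size), which is scaled to length and so can be set side by side between genes. The table gives 1 value per gene and condition, so no difference below has a replicate error, a test or an n, and each is described by its size. Ratios are the log2 difference of FPKM + 1 between the conditions (4-OHT minus ethanol), and folds are on the same scale, which understates the difference of low genes. In the ethanol condition the order of levels was Spi1 (86.3 FPKM), Id2 (71.5), Irf8 (48.8), Cebpb (35.1), Cebpa (18.5), Gfi1 (12.6), Cebpd (3.80), Nr4a1 (3.34), Cebpe (2.07) and Batf3 (1.01). PU.1 and ID2 messages thus led the set, and Batf3 lay near the lower limit of the rows compared. In the 4-OHT condition Spi1 (166.8 FPKM) and Id2 (139.5) again led, followed by Cebpb (67.6), Cebpa (50.4), Irf8 (49.2), Cebpd (17.2), Cebpe (17.0), Gfi1 (10.9), Nr4a1 (4.41) and Batf3 (2.71). Irf8 moved from the third place to the fifth, Gfi1 from the sixth to the eighth, and Nr4a1 from the eighth to the ninth, while Cebpa, Cebpb, Cebpd and Cebpe moved up. Without a spread over libraries, neighbours in this order such as Cebpa and Irf8 in 4-OHT cannot be called different.

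**Figure D1:**
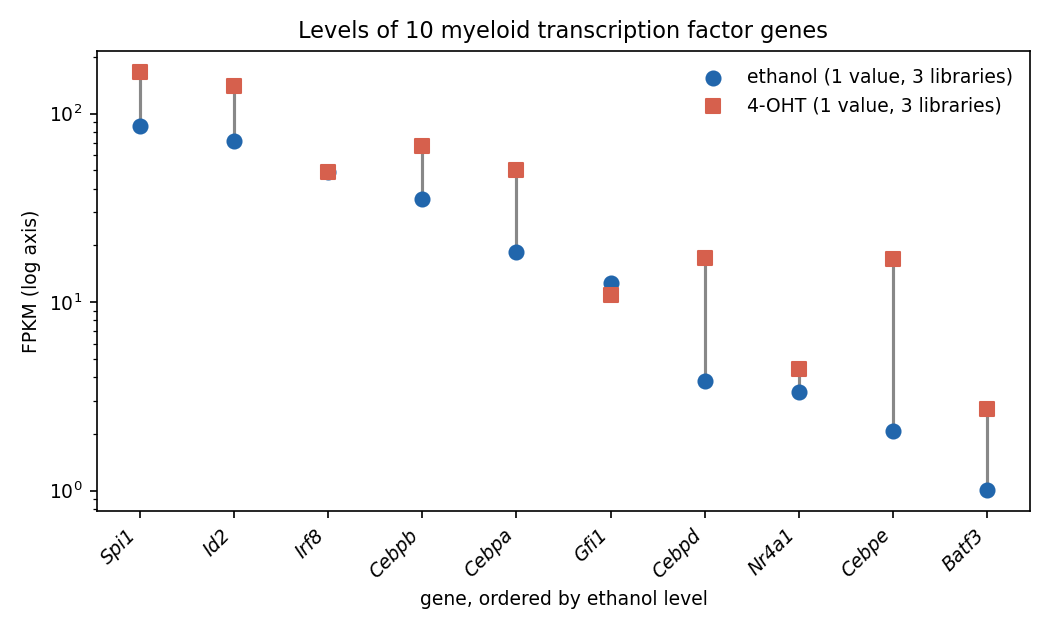
FPKM on a log axis of each of the 10 genes in ethanol (blue circles) and 4-OHT (red squares), 1 deposited value per condition, ordered by the ethanol level. The long lines belong to Cebpd (3.80 to 17.2) and Cebpe (2.07 to 17.0), while the points of Irf8 and Gfi1 nearly coincide.

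Of the 10 genes, 9 were higher in 4-OHT by any size and 1, Gfi1, was lower; among all 10856 compared rows 44.9% were higher. At least 2-fold higher were Cebpe (log2 ratio 2.55), Cebpd (1.92) and Cebpa (1.40), 3 of 10, against a background of 10.4% of all compared rows. None was at least 2-fold lower, against a background of 2.58%. A further 4 genes lay just under that line, between 1.8-fold and 2-fold higher: Id2 (1.94-fold), Spi1 (1.92-fold), Cebpb (1.90-fold) and Batf3 (1.85-fold). When the conditions were rescaled by the median of ratios, Spi1, Cebpb and Id2 crossed it and the count was 6. The median ratio of the 10 genes was 0.93, and that of all compared rows was -0.07. Cebpe stood at rank 55 of the compared rows from the highest ratio down, Cebpd at 169 and Cebpa at 486. The members were chosen with earlier results of these data known, so the counts describe this set and do not test it.

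**Figure D2:**
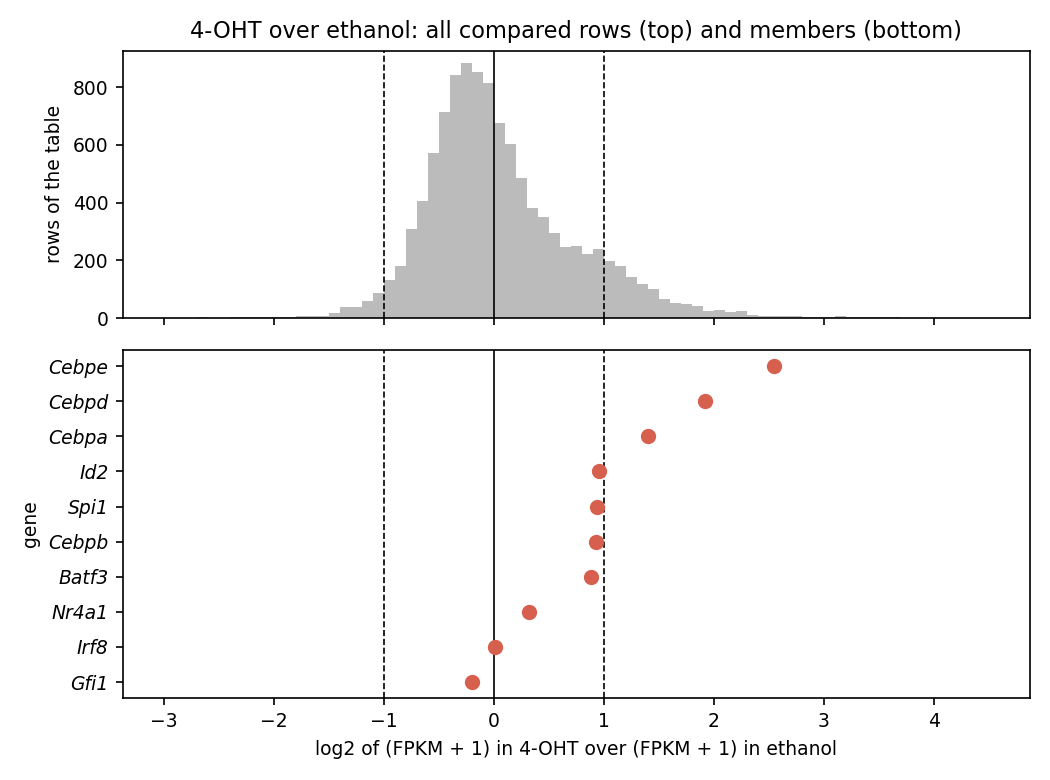
Log2 ratio of 4-OHT over ethanol for all 10856 compared rows (grey histogram, values beyond the axis gathered in the end bins) and for each of the 10 genes (red points); dashed lines mark 2-fold. Cebpe, Cebpd and Cebpa lie to the right of the upper line, 4 genes lie just to its left, and Gfi1, Irf8 and Nr4a1 lie near 0.

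Spi1, which encodes PU.1 (chromosome 2, 90936954 to 90955913 on mm9), was at 86.3 FPKM with ethanol against 166.8 FPKM with 4-OHT, a log2 ratio of 0.94. Its level in ethanol already exceeded 93.6% of the compared rows. The other members of its ETS subgroup did not move with it. Spib, which encodes the B-cell relative SPI-B, stood at 44.8 and 20.1 FPKM (log2 ratio -1.12), and Spic, a gene of red pulp macrophages, was under 1 FPKM in both conditions. Spi1 therefore made up 65.5% of the summed FPKM of Spi1, Spib and Spic in ethanol and 88.8% in 4-OHT. Among 10 compared ETS genes other than Spi1, none was at least 2-fold higher, while 2 (Erg and Spib) were at least 2-fold lower. Over all compared rows these shares were 10.4% and 2.58%. The median ratio of the 10 ETS genes was -0.34. Erg, a factor of stem cells and endothelium, stood at 16.6 and 7.08 FPKM (log2 ratio -1.12). Ets1, a lymphoid factor, stood at 78.0 and 46.1 FPKM, and Etv6 had the highest ratio, 0.51.

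Textbook target genes of PU.1 were mostly higher in 4-OHT. Of 15 listed, all were compared, 10 were at least 2-fold higher and none was at least 2-fold lower. Over all compared rows these shares were 10.4% and 2.58%. The median ratio of the targets was 1.15. Tyrobp, the signalling adaptor of myeloid receptors, stood at 380.9 and 976.8 FPKM, and Cd68, a lysosomal protein of macrophages, at 146.0 and 324.4 FPKM. Ncf1, a subunit of the phagocyte NADPH oxidase, had the highest ratio (38.3 and 129.9 FPKM, 1.74). The exceptions were Tlr4, the endotoxin receptor, at -0.21, and Btk, a kinase that B cells share, at -0.19. PU.1 targets are also marker genes of monocytes and neutrophils, whose levels are given below.

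All 4 C/EBP genes of the set were higher in 4-OHT, and those with low levels in ethanol had the highest ratios. Cebpe (chromosome 14, 55329200 to 55331011) went from 2.07 FPKM with ethanol to 17.0 FPKM with 4-OHT, 5.85-fold higher. The authors' deposited table, which uses no pseudocount, lists a log2 fold change of 3.03 for it. Cebpd (chromosome 16, 15887379 to 16146926) stood at 3.80 and 17.2 FPKM, 3.79-fold higher, and the deposited table of the authors lists 2.18. The locus given for Cebpd is 259548 bases long and is shared with the row of 2310008H04Rik, so it spans more than the gene. That neighbouring row was near equal, at 7.71 and 7.23 FPKM. Cebpa (chromosome 7, 35904312 to 35906951) stood at 18.5 and 50.4 FPKM, 2.64-fold higher. Cebpb (chromosome 2, 167514415 to 167515918) stood at 35.1 and 67.6 FPKM, 1.90-fold higher, and was the most abundant of the 4 in both conditions.

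The remaining genes of the C/EBP group differed from these 4. Cebpg, which encodes a partner that lacks an activation domain, was lower in 4-OHT, at 20.1 and 16.3 FPKM (log2 ratio -0.28). Cebpz, a CCAAT-binding protein gene that is a C/EBP by name, was at -0.42, and Ddit3, which encodes the stress factor CHOP, was at 0.50. In ethanol Cebpg made up 25.2% of the summed FPKM of Cebpa, Cebpb, Cebpd, Cebpe and Cebpg, and in 4-OHT it made up 9.69%. The share of Cebpb was 44.1% in ethanol and 40.1% in 4-OHT, and that of Cebpa was 23.2% and 29.9%. Cebpd went from 4.78% to 10.2% and Cebpe from 2.61% to 10.1%. The summed FPKM of the 5 genes was 79.5 in ethanol and 168.5 in 4-OHT, 2.12 times as high. The mixture of C/EBP messages thus held more Cebpe and Cebpd in 4-OHT, while Cebpb stayed the largest part.

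Granule and receptor genes that C/EBP factors are known to activate were higher in 4-OHT, most of them by more than the factors. With the deposited fold changes, which use no pseudocount, the median of these genes (3.13) and Cebpe (3.03) lay close together. Of 13 listed, 11 were matched and compared; S100a8 and S100a9 were not analysed here. At least 2-fold higher were 10 of the 11, against 10.4% of all compared rows, with a median ratio of 3.10. Ngp and Lcn2, secondary granule genes that C/EBP epsilon activates, stood at 124.7 and 1269.3 FPKM and at 90.7 and 687.2 FPKM. Mpo, the primary granule gene for myeloperoxidase, had the highest ratio (16.4 and 222.3 FPKM, 3.68). Il6ra, the interleukin 6 receptor gene, had the lowest, 0.91. Csf3r, the receptor gene for G-CSF that both PU.1 and C/EBP alpha activate, stood at 16.2 and 51.6 FPKM. These genes include the neutrophil markers described below, so they are no independent measure of C/EBP activity.

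Gfi1, a zinc finger repressor gene of neutrophil precursors that early B cells also express, was the exception among the granulocyte factors. It (chromosome 5, 108145674 to 108153363) measured 12.6 FPKM with ethanol and 10.9 FPKM with 4-OHT, a log2 ratio of -0.19. In ethanol its level was 6.08 times that of Cebpe, and in 4-OHT Cebpe was 1.56 times as high as Gfi1. Its paralogue Gfi1b, of erythroid cells and megakaryocytes, stood at 3.03 and 4.66 FPKM. Of 9 genes known to be repressed by GFI1, 7 were compared and all 7 were higher in 4-OHT, of which 3 passed 2-fold. Their median was 0.95. Over all compared rows, 44.9% were higher and 10.4% at least 2-fold higher. A link of these levels to Gfi1, or to the cell types described below, was not tested. Id1 (7.28 and 18.6 FPKM, log2 ratio 1.24) had the highest ratio and Gfi1b (0.49) the lowest. Csf1, which encodes the macrophage growth factor M-CSF, stood at 7.73 and 17.9 FPKM. The list holds Id2, a member of the set; without it the median was 1.00 over 6 genes. Hoxa9 and Meis1, on the same list, were under 1.5 FPKM in both conditions.

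Irf8 was expressed and nearly equal. It (chromosome 8, 123260276 to 123280592) measured 48.8 FPKM with ethanol and 49.2 FPKM with 4-OHT, a log2 ratio of 0.01. The ratio of Irf8 to Cebpa, factors of the monocyte and granulocyte branches, was 2.64 in ethanol and 0.977 in 4-OHT. Irf8 is also a gene of B cells, so a bulk level joins several cell types, and in bulk samples fewer cells of a type and less RNA per cell cannot be told apart. Irf4, its closest relative, which pre-B cells and plasma cells use, stood at 44.3 and 25.9 FPKM (-0.75). Irf5, a factor of macrophage activation, stood at 33.4 and 49.5 FPKM (0.56), and Irf7, an interferon-induced factor, at 2.99 and 5.93 FPKM (0.80). Irf1 and Irf2 were at 0.10 and 0.14, Irf9 was at 0.45 and Irf3 at -0.27. None of the 7 other IRF genes compared was 2-fold different, and the summed FPKM of these 7 and Irf8 was 225.7 in ethanol and 232.4 in 4-OHT.

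Of 8 genes listed as targets of IRF8, 7 were compared, with a median of 0.69. At least 2-fold higher was 1, and none was 2-fold lower. Among all compared rows 10.4% were at least 2-fold higher and 2.58% lower, so these counts do not set the targets apart. Ctss and Cst3, a lysosomal protease gene and the gene of its inhibitor cystatin C, stood at 817.3 and 1540.3 FPKM and at 368.6 and 731.4 FPKM. The GM-CSF receptor gene Csf2ra, which also stands on the lists of PU.1 targets and of receptors, had the highest ratio, 1.15. Ciita, the master regulator of class II genes, had the lowest, at 6.19 and 3.51 FPKM (-0.67). Klf4, which encodes a monocyte factor downstream of IRF8, stood at 4.98 and 8.66 FPKM (0.69). Cx3cr1, the fractalkine receptor gene (4.52 and 4.14 FPKM, -0.10), and Naaa, a lysosomal amidase gene (log2 ratio 0.28), were near equal, as Irf8 was. The targets thus ranged from lower to at least 2-fold higher. Under median-of-ratios scaling 2 of them were at least 2-fold higher.

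Nr4a1, which encodes the orphan nuclear receptor NUR77 of patrolling monocytes and of antigen receptor signalling, was low and differed little. It (chromosome 15, 101097277 to 101105225) measured 3.34 FPKM with ethanol and 4.41 FPKM with 4-OHT, 1.25-fold higher. Nr4a2 stood at 2.75 and 1.49 FPKM (-0.59), and Nr4a3 was under 0.5 FPKM in both. The 3 NR4A genes summed to 6.29 FPKM with ethanol and 6.22 FPKM with 4-OHT, and Nr4a1 made up 53.0% and 70.9% of that sum. Of 8 genes of the monocytes that need NR4A1, 6 were compared, with a median of 0.85. At least 2-fold higher were 2, against 10.4% of all compared rows. With a pseudocount of 0.1 and with the deposited fold changes 4 were at least 2-fold higher. The first 2 were Cd36, a scavenger receptor gene (39.3 and 104.0 FPKM, 1.38), and Fabp4, a fatty acid binding protein gene (89.6 and 182.7 FPKM). Macrophages also express both. Cx3cr1, the fractalkine receptor gene that defines these monocytes, had the lowest ratio, at 4.52 and 4.14 FPKM. Ace and Cd300e, on the same list, were under 0.5 FPKM in both conditions.

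Batf3, a leucine zipper factor gene of dendritic cells, had the lowest level of the set. It (chromosome 1, 192922293 to 192932822) measured 1.01 FPKM with ethanol and 2.71 FPKM with 4-OHT, 1.85-fold higher. At so low a level the pseudocount matters: the deposited table of the authors lists a log2 fold change of 1.43, and with a pseudocount of 0.1 FPKM the ratio was 1.34. Its relative Batf, an AP-1 factor gene of lymphocytes, was more abundant, at 8.06 and 14.0 FPKM (0.73), and Batf2 was at 0.447 and 1.12 FPKM. Of the JUN partners, Junb stood at 58.8 and 86.9 FPKM (0.55), Jun at 36.1 and 44.2 FPKM (0.28) and Jund at 28.5 and 26.3 FPKM (-0.11). Genes of the dendritic cells that need BATF3 were mostly too low to compare: 4 of 9 entered, none at least 2-fold higher. Over all compared rows 10.4% were at least 2-fold higher and 2.58% at least 2-fold lower. The chemokine receptor gene Xcr1 and the C-type lectin gene Clec9a, which define these cells, were under 1 FPKM in both conditions. The endosomal receptor gene Tlr3 was at 0.429 and 1.31 FPKM. Wdfy4, a cross-presentation gene that B cells also express, stood at 65.0 and 31.9 FPKM and was the 1 gene of this list at least 2-fold lower (2.005-fold); under median-of-ratios scaling and under quantile normalization the count was 0. Cadm1 had the highest ratio, 0.74.

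Id2, the E protein inhibitor gene, stood second in level in both conditions. It (chromosome 12, 25778664 to 25780957) measured 71.5 FPKM with ethanol and 139.5 FPKM with 4-OHT, 1.94-fold higher. Its relatives went different ways. Id1 was at 7.28 and 18.6 FPKM (1.24), Id3, which B cells use, was near equal at 50.1 and 49.4 FPKM (-0.02), and Id4 was under 0.3 FPKM in both. Id2 made up 55.5% of the summed FPKM of the 4 ID genes in ethanol and 67.1% in 4-OHT. The E proteins that ID2 binds were lower or near equal. Tcf3, which encodes E2A, stood at 120.6 and 73.2 FPKM (-0.71), Tcf12, which encodes HEB, at 31.3 and 21.6 FPKM (-0.52), and Tcf4, which encodes E2-2, at 8.29 and 8.09 FPKM (-0.03). Summed FPKM of the ID genes was 128.9 in ethanol and 207.7 in 4-OHT, and that of the E protein genes was 160.2 and 102.8. The order of the sums was therefore opposite in the conditions, with E protein messages above ID messages in ethanol and below them in 4-OHT.

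**Figure D3:**
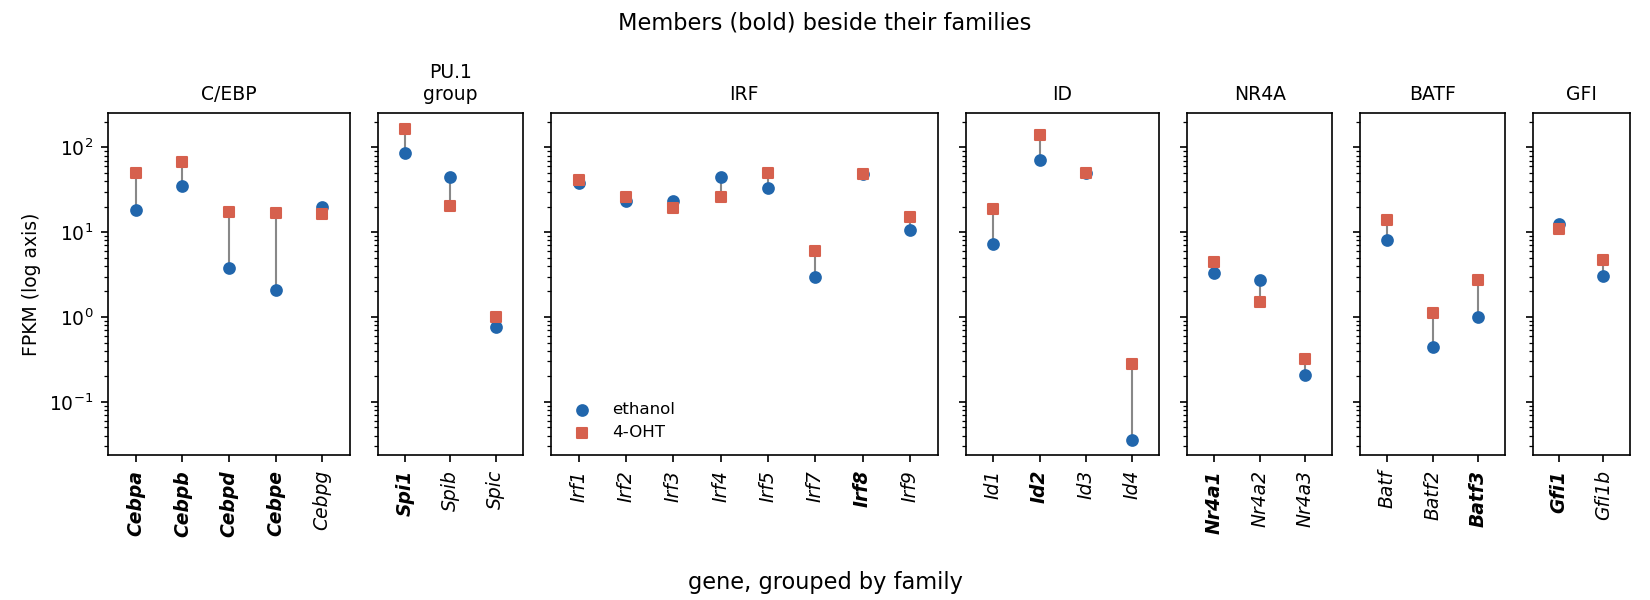
FPKM on a log axis of the 10 genes (bold) and their family relatives in ethanol (blue circles) and 4-OHT (red squares), 1 deposited value per condition, 1 panel per family. Cebpa, Cebpb, Cebpd, Cebpe, Spi1 and Id2 lie higher in 4-OHT, whereas Cebpg, Spib and Irf4 lie lower.

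Receptors through which these factors are induced or act were mostly higher in 4-OHT. All 12 listed receptor genes were compared, 11 were higher and 3 of these at least 2-fold, with a median of 0.75. Over all compared rows, 44.9% were higher and 10.4% at least 2-fold higher. Csf1r, the M-CSF receptor gene, stood at 90.5 and 151.9 FPKM, and Csf2rb, the common beta chain gene for GM-CSF and interleukin 3, at 95.8 and 141.7 FPKM. Kit, the stem cell factor receptor gene, had the highest ratio (0.866 and 5.01 FPKM, 1.69). Flt3, a receptor gene of lymphoid and dendritic progenitors, was the one that was lower (3.20 and 1.53 FPKM, -0.73), and passed 2-fold with a pseudocount of 0.1 and with the deposited fold changes. Of 9 ligand genes only Csf1 and Flt3l (1.93 and 2.88 FPKM) were compared. The GM-CSF and G-CSF genes Csf2 and Csf3 were under 0.3 FPKM in both conditions, and Il3 is listed at 0 in both.

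Other transcription factor genes of myeloid cells leaned the same way as the 10. Of 25 listed, 24 were compared, 20 were higher and 8 of these at least 2-fold, with a median of 0.80. Among all compared rows 44.9% were higher and 10.4% at least 2-fold higher. The highest ratio was that of Nfe2, a factor of megakaryocytes and erythroid cells (8.88 and 39.8 FPKM, 2.05). Gata1, which these lineages also use, came next (1.67 and 7.46 FPKM, 1.66). The list is therefore not one of granulocyte and monocyte factors alone. Myb and Cbfb, which progenitors of several lineages including B cells express, had the highest mean level of the conditions and were lower, at -0.55 (73.0 and 49.4 FPKM) and -0.42 (52.2 and 38.7 FPKM). In 4-OHT, Stat3, which encodes a signal transducer of cytokine receptors (22.6 and 43.5 FPKM, 0.92), and Nfe2 stood above Cbfb. Factor genes of the B lineage lay on the other side: all 10 were compared, all were lower and 3 were at least 2-fold lower. Their median was -0.78. Over all compared rows 2.58% were at least 2-fold lower. Pou2af1, a B-cell coactivator gene, stood at 208.2 and 100.1 FPKM, and Ikzf1, which encodes IKAROS of all lymphoid cells, at 59.4 and 45.6 FPKM. The lowest ratio was that of Bcl11a (-1.12) and the highest that of Bach2 (-0.03).

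**Figure D4:**
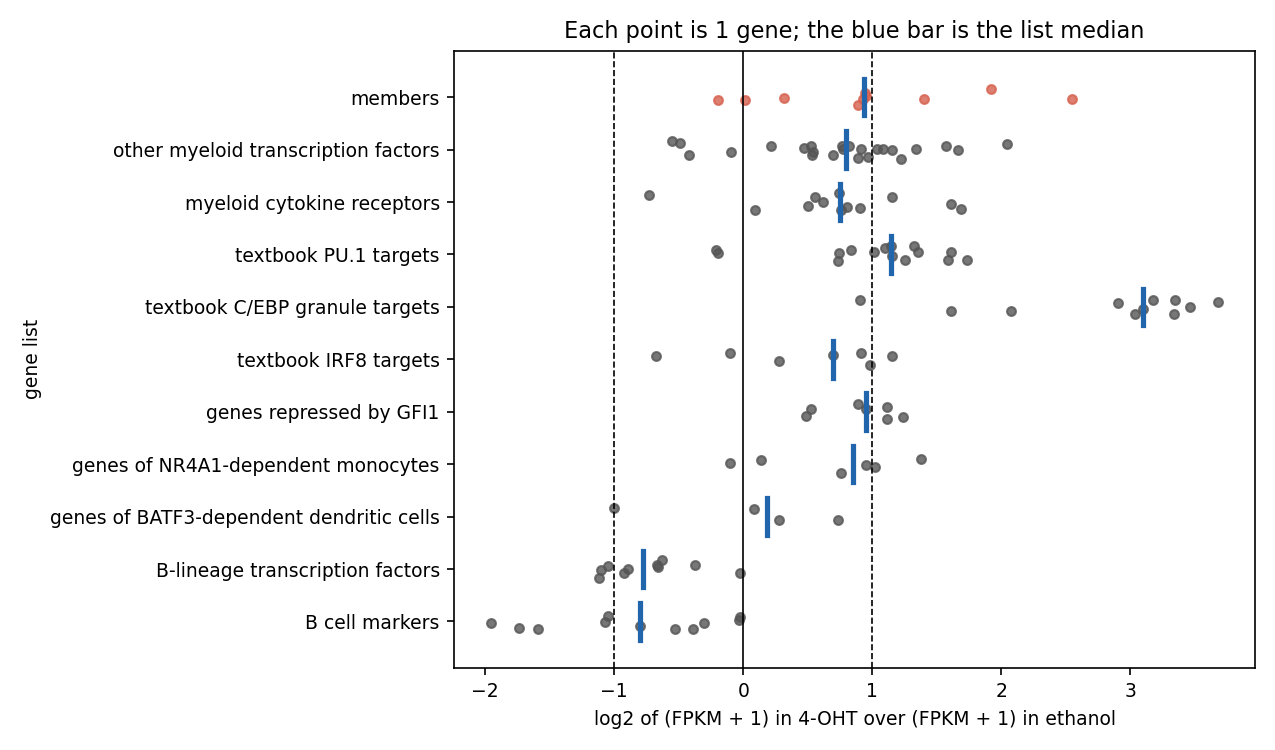
Log2 ratio of 4-OHT over ethanol of each compared gene (points) in the 10-gene set (red) and 10 other gene lists (grey), with list medians (blue bars) and dashed lines at 2-fold; vertical scatter within a list has no meaning. The C/EBP granule targets lie farthest right (median 3.10), the 10-gene set lies at 0.93, and the B-lineage factors and B cell markers lie left of 0 (medians -0.78 and -0.80).

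Markers of several cell types moved in the same comparison. For the counts below, 44.9% of all compared rows were higher, 10.4% at least 2-fold higher and 2.58% at least 2-fold lower. All 11 B cell markers were compared and lower in 4-OHT, 5 of them at least 2-fold, and they summed to 1575.3 FPKM with ethanol and 707.2 FPKM with 4-OHT; the antigen receptor genes Cd79a (259.6 and 85.6 FPKM) and Cd79b (255.6 and 146.7 FPKM) were present in both. Of 13 neutrophil markers 10 were matched, all 10 were at least 2-fold higher, and they summed to 530.9 and 4021.1 FPKM. Of 14 monocyte and macrophage markers 12 were compared, all 12 were higher and 8 of these at least 2-fold. Without Lyz2, which is listed at 0 in 4-OHT and at 3834.9 FPKM in ethanol, that list summed to 802.4 and 1943.2 FPKM. Myeloid markers were thus present in the ethanol condition too, beside a label that names B cells. Of 9 dendritic cell markers 4 were compared, 3 of them higher, and they summed to 60.1 and 106.5 FPKM, most of it Bst2, which other cells also express; Zbtb46 and Siglech were under 0.4 FPKM in both conditions. The 9 basophil and mast cell markers summed to 91.1 and 327.3 FPKM (6 compared, 5 at least 2-fold higher), and the 6 megakaryocyte markers, all at least 2-fold higher, summed to 222.8 and 833.7 FPKM. The 8 stromal and endothelial markers, all at least 2-fold higher, summed to 42.9 and 486.0 FPKM. Natural killer and innate lymphoid markers summed to 5.72 and 20.4 FPKM (11 listed, 3 compared, 1 at least 2-fold higher), of which Nkg7 made up 1.62 and 13.6 FPKM and the other 10 genes 4.10 and 6.90 FPKM. T cell markers summed to 20.3 and 31.3 FPKM (7 listed, 5 compared, 1 at least 2-fold higher), and the 5 matched erythroid markers to 0.657 and 2.48 FPKM (1 compared). The part of these cell types in the levels of the 10 genes was not tested.

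In these summed marker levels the neutrophil list was 7.57 times as high in 4-OHT as in ethanol. The monocyte and macrophage list without Lyz2 was 2.42 times as high and the B cell list 0.449 times as high. The stromal and endothelial list was 11.3 times as high, the megakaryocyte list 3.74 times and the basophil and mast cell list 3.59 times. The dendritic cell list was 1.77 times and the T cell list 1.55 times as high. Lat made up most of the T cell sums (16.1 and 19.9 FPKM). It had the lowest ratio of the compared T cell genes (0.29). The lists with the lowest sums, erythroid and natural killer with innate lymphoid, were 3.78 and 3.57 times as high. The raw FPKM ratios of the 10 genes were 8.18 for Cebpe, 4.52 for Cebpd, 2.73 for Cebpa, 2.69 for Batf3, 1.95 for Id2, 1.93 for Spi1 and Cebpb, 1.32 for Nr4a1, 1.01 for Irf8 and 0.864 for Gfi1. Prmt5 stood at 41.6 and 5.71 FPKM, lower in the condition labelled as deleted, and Myc at 402.0 and 213.5 FPKM.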

How the data were processed

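RNA of 6 libraries (3 with ethanol, 3 with 4-OHT) was sequenced. The deposited table holds 1 FPKM value per gene and condition, computed by the authors with CASAVA, TopHat2 2.0.9 and Cufflinks 2.1.1 on mm9, per the submitters' processing notes; neither read depth nor the way the 3 libraries were combined and scaled is given in the sources used here. The log2 fold change column that the authors deposited equals the log2 ratio of the FPKM values within 0.01 in all 15756 rows above 0 in both conditions.

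Ratios were computed as log2 of (FPKM + 1), over the 10856 rows whose mean reached 1 FPKM and that were above 0 in both conditions. All 10 genes entered. Limma and other tests across libraries need a value per library and were not run. The members and gene lists were chosen with earlier results of these data known. Besides the 10 genes, their family relatives were named. In other lists the 2 most abundant genes and those with the highest and lowest ratio were named. Btk, Klf4, Csf3r, Stat3, Gata1, Naaa, Nkg7 and, among the IRF8 targets, Cx3cr1 were chosen after their values were seen. So were the low genes named with a limit, the examples among the markers and the genes near Prmt5. Starts of loci were raised by 1, because lengths equalled RefSeq gene lengths in 6341 rows with a start counted from 0 and in 437 with a start counted from 1. Promoters came from RefSeq (GRCm38.p6) by symbol. Another 3 genes of the planned lists are not reported here and were left out of list counts and sums. The planned comparison of C/EBP proteins was not run. The ratio was tested on simulated data. Computation ran in Python 3.11.15 with pandas 2.3.3 and numpy 2.4.6, and figures were drawn with matplotlib 3.10.9.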

Additional observations from a re-analysis of the deposited data

How the results depend on the processing

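In all, 8 alternatives were run: pseudocounts of 0.1 and 0.5 FPKM, the authors' deposited fold changes, no filter on low values, a minimum mean of 5 FPKM, median-of-ratios scaling, quantile normalization and leaving out rows that merge gene names. Each of the 10 genes kept its direction under every one that gave it a value (Nr4a1 and Batf3 have none with a minimum of 5 FPKM). The log2 ratio ran from 2.41 to 3.03 for Cebpe, from 1.85 to 2.18 for Cebpd, from 1.40 to 1.47 for Cebpa, from 0.59 to 1.43 for Batf3, from 0.17 to 0.40 for Nr4a1, from 0.01 to 0.09 for Irf8 and from -0.21 to -0.12 for Gfi1. Under median-of-ratios scaling, which moved the median of all rows by 0.07, 6 genes were at least 2-fold higher in place of 3, with Spi1 at 1.02, Cebpb at 1.00 and Id2 at 1.03. Of all rows, 700 were at least 2-fold higher with a minimum of 5 FPKM (fewer rows compared) in place of 1124, and 457 and 482 were at least 2-fold lower with a pseudocount of 0.1 and with the deposited fold changes in place of 280. The median of the other ID and E protein genes turned from -0.03 to 0.037 under median-of-ratios scaling, and that of the BATF3-dependent dendritic cell genes from 0.18 to -0.36 at the minimum of 5 FPKM, which left fewer genes. The ligand median was 0.76 over 2 genes, 1.11 at that minimum, which left Csf1 alone, and 0.31 with no filter. The median of the NR4A1-dependent monocyte genes (0.85) was 1.02, 1.00 and 1.02 with pseudocounts of 0.1 and 0.5 and with the deposited fold changes, 0.70 under quantile normalization and 0.53 with no filter, and that of the genes repressed by GFI1 was 1.04 with 0.1, 1.06 with the deposited fold changes and 1.03 under median-of-ratios scaling. No paired analysis was possible because libraries have no values of their own in the table, and for this reason single libraries could not be left out either. Without counts the precision of low values, such as those of Batf3, cannot be stated.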

Other observations

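Cebpe lies 192.9 kb from Prmt5 on chromosome 14 of mm9, the gene that was deleted in 4-OHT. Between them the table has 9 rows, of which 6 were compared. None of the 6 was 2-fold different. Their log2 ratios ran from -0.53 for Haus4, a spindle gene, to 0.04 for 1700123O20Rik, with a median of -0.16. Psmb5, a proteasome subunit gene, stood at 127.5 and 128.7 FPKM in ethanol and 4-OHT, and Acin1, an RNA-binding protein gene that lies next to Cebpe in the table, at 80.7 and 74.8 FPKM. Cebpe, at 2.07 and 17.0 FPKM, and Prmt5, at 41.6 and 5.71 FPKM, were therefore the rows of this interval that differed by 2-fold or more among those compared. Of the rows too low to compare, Jub stood at 0.118 and 0.746 FPKM, with a deposited log2 fold change of 2.66. The deposited values of Psmb11 and 4930579G18Rik, also too low to compare, were -0.11 and -0.37.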
